A study of Homo sapiens with 12 samples.

Results

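Polyamine metabolism was followed through 10 genes, taken by symbol from the count tables: ODC1, AMD1, SRM and SMS of synthesis, OAZ1, OAZ2 and AZIN1 of the control of ornithine decarboxylase, and SAT1, SMOX and PAOX of breakdown. All 10 of 10 were among the 40929 symbols of the tables, and all 10 were among the 15104 genes that passed the filter on low counts. RNA came from MDA-MB-231, an established human line of triple-negative breast cancer with a wild-type genotype in the labels, grown for 48 h in 4 media. The medium of NG held 10 mM glucose and that of LG 5 mM, while CAR and LGCAR had these same glucose levels plus 25 µM cariporide, an inhibitor of the sodium-proton exchanger NHE1. Each group had 3 libraries. All groups shared the line, the culture medium with 10% serum and the length of treatment, and no label says that replicates were cultured separately. The p-values below therefore measure the spread between these libraries, which may be technical.

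Polyamines (putrescine, spermidine and spermine) are small positively charged molecules that bind nucleic acids and are needed for growth and translation. Ornithine decarboxylase (ODC1) makes putrescine, S-adenosylmethionine decarboxylase (AMD1) supplies the aminopropyl donor, and spermidine synthase (SRM) and spermine synthase (SMS) add aminopropyl groups. Antizymes (OAZ1, OAZ2) bind ODC1 and send it to the proteasome, and the antizyme inhibitor AZIN1, an inactive relative of ODC1, takes antizyme away from it. SAT1 acetylates spermidine and spermine, PAOX oxidises the acetylated forms and SMOX oxidises spermine directly. Much of this control acts on translation and on protein turnover, which RNA levels do not show.

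The library totals ran from 18069004 to 24837409 counts. The deposited counts were scaled to CPM (edgeR's scale of counts relative to the library total, with TMM factors) and genes varied between libraries of a group by a common coefficient of 6.94% beyond counting error. TXNIP, whose transcription follows glucose supply, served as a check of the labels and lay between 245 and 278 CPM in the 6 libraries at 10 mM glucose and between 40.6 and 94.6 CPM in the 6 at 5 mM. The line's defining markers VIM, KRT18, KRT8 and CD44 were at 331 CPM or more in every library, PGR was at 0 in all 12 and ESR1 had at most 4 counts. Of the markers of other cell types, CD3E was at 0, PTPRC, CD79A, CDH5, VWF, DCN and PDGFRA had at most 8 counts, and CD14, PECAM1, LUM, COL1A1 and COL1A2 were between 0.331 and 9.84 CPM. ERBB2 was at 55.3 to 67.0 CPM, EPCAM at 8.74 to 13.8 CPM and CDH1 at 0.954 to 2.47 CPM. Ribosomal RNA took 7.10% to 11.5% of the counts of a library, at least 9.32% in every LGCAR library and at most 9.06% in every CAR and LG library. Its highest shares were in NG 1 (11.2%) and LGCAR 3 (11.5%). Without these 2 libraries together ODC1 was still called in LGCAR against NG, and no other of the 10 genes was. This omission also leaves fewer libraries in both groups. With all libraries kept and the ribosomal RNA genes left out, 4 of the 10 genes were called there, as in the main result.

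The 4 polyamine genes that passed the test in at least 1 comparison were ODC1, AMD1, SRM and OAZ2. The 250 bases before their RefSeq start sites (GRCh38.p14) are shown to set the stretches upstream of these genes side by side. They cover chr2:10448328-10448577 on the minus strand for ODC1, chr6:110874534-110874783 on the plus strand for AMD1, chr1:11060019-11060268 on the minus strand for SRM and chr15:64703282-64703531 on the minus strand for OAZ2, each written 5′ to 3′ towards the start. Capitals mark any of 4 motifs, searched on both strands: the E-box CACGTG (bound by MYC and its relatives), the GC box GGGCGG, the TATA box TATAAA and the CRE core TGACG.
ODC1: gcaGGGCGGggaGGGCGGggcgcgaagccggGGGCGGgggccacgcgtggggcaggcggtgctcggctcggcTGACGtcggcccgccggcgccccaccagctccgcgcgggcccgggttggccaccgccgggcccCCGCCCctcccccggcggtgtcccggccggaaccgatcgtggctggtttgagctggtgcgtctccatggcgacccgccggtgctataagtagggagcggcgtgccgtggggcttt
AMD1: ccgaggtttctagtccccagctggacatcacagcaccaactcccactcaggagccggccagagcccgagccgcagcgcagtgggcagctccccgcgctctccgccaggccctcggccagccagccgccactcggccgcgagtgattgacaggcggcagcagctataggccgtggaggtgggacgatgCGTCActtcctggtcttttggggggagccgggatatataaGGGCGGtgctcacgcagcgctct
SRM: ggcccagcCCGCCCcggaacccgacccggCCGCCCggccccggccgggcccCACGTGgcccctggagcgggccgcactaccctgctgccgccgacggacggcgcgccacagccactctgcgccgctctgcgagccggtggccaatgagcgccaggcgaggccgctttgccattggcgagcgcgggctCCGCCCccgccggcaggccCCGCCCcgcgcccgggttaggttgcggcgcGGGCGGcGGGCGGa
OAZ2: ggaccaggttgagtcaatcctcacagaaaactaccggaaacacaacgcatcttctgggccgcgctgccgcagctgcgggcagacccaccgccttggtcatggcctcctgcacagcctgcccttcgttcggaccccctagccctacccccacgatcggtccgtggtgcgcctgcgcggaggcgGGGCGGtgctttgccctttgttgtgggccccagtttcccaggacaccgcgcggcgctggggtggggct

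No marked match overlaps another. The window of AMD1 ends before the start site at 110874784, which lies inside the RefSeq span of the gene. The window of SRM held 1 E-box, 199 bases before the start, and 6 GC boxes. ODC1 had 4 GC boxes and a CRE core 178 bases before the start. AMD1 had 1 GC box and a CRE core 63 bases before the start, and OAZ2 had 1 GC box 68 bases before the start. RefSeq windows were matched for 7 of the 10 genes, and of these 1 held the E-box, 6 the GC box, none the TATA box and 3 the CRE core. Over 35116 RefSeq windows of the same length the shares were 6.35%, 42.6%, 10.7% and 21.2%. A match is a description of letters only, and no match says only that these letters are not in this window.

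On GRCh38.p14 (RefSeq, counted from 1) ODC1 lies on chromosome 2 (10439968 to 10448327), AMD1 on chromosome 6 (110814617 to 110895713), SRM on chromosome 1 (11054589 to 11060018) and SMS on chromosome X (21940709 to 21994837). OAZ1 lies on chromosome 19 (2269486 to 2273488), OAZ2 on chromosome 15 (64687574 to 64703281) and AZIN1 on chromosome 8 (102826302 to 102864200). SAT1 lies on chromosome X (23783173 to 23786210), SMOX on chromosome 20 (4148828 to 4187727) and PAOX on chromosome 10 (133379262 to 133391694). Counts are given as 1 value per gene, so coding parts and UTRs cannot be told apart. In GENCODE 29 the exons of OAZ1, OAZ2, AZIN1 and PAOX overlap those of other genes over 5.35% to 7.22% of their length, counted per strand. OAZ1 has such overlaps on both strands, 6.40% on its own and 6.87% on the other. AMD1 has 4 processed pseudogenes and SRM 2 in that annotation, none of them in the count tables, so how reads common to them were counted is unknown and both genes are uncertain to that extent.

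In NG the genes spanned a wide range of levels per transcript length. OAZ1 was highest at 365 ± 7.38 CPM per kb (SD, n = 3), followed by SMS at 173 ± 6.91, SAT1 at 85.1 ± 5.39 and SRM at 79.3 ± 0.509 CPM per kb. ODC1 (55.4 ± 3.27) and AZIN1 (53.85 ± 2.002) came next, and their libraries overlapped, the only neighbours in this order that did. AMD1 (31.8 ± 1.36), OAZ2 (27.3 ± 1.19), SMOX (8.81 ± 0.812) and PAOX (3.57 ± 0.378 CPM per kb) followed. The 2 antizymes stood far apart in this order, and SMOX and PAOX, the oxidases, were the lowest. The order rests on the median length of coding transcripts, 1058.5 bases for OAZ1, 1505.5 for SMS, 1744 for OAZ2 and 2197 for SMOX. All exons of these genes together span 3436, 2160, 7671 and 2946 bases. By that length OAZ1 would not stand above SMS, nor OAZ2 above SMOX, so places in the order depend on the length used. PAOX rested on 107 to 151 counts per library, which gave it the widest intervals of the 10 genes.

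**Figure D1:**
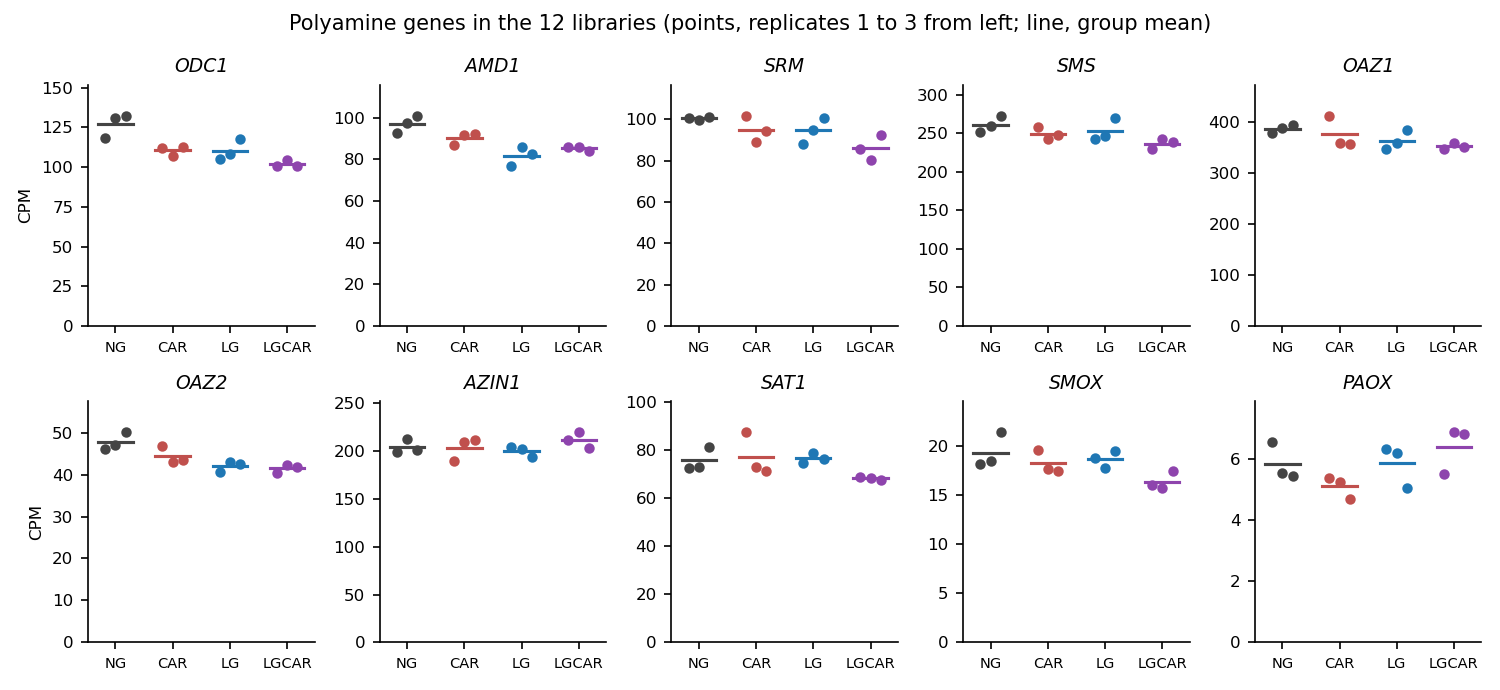
Level of each of the 10 polyamine genes (y axis, CPM, from 0) in the 12 libraries by group (x axis); points are libraries and lines are group means. ODC1 lies between 118.6 and 132.2 CPM in NG and between 100.5 and 104.5 CPM in LGCAR, while AZIN1 overlaps between all groups.

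Of the 4 synthesis genes, ODC1, AMD1 and SRM were called in at least 1 comparison. ODC1, the first enzyme of the route, was at 119, 131 and 132 CPM in the 3 NG libraries, at 112, 107 and 112.5 CPM in CAR, at 105, 108 and 118 CPM in LG, and at 101, 105 and 101 CPM in LGCAR. Every library of the other 3 groups was below every NG library, and every LGCAR library was below every CAR and LG library. Between NG (127 ± 7.52 CPM) and LGCAR (102 ± 2.27 CPM, SD, n = 3 each) ODC1 fell by 19.9% (log2 fold change -0.32, SE 0.0555, 95% interval -0.44 to -0.20, edgeR adjusted p = 0.00519). In LG (110.3 ± 6.40 CPM) the log2 fold change against NG was -0.21 (SE 0.0552, interval -0.32 to -0.09, edgeR adjusted p = 0.0725), and in CAR (110.6 ± 2.99 CPM) it was -0.20 (SE 0.0551, interval -0.32 to -0.09, edgeR adjusted p = 0.894). Neither passed the threshold of 0.05, although their unadjusted p-values were 0.00173 and 0.00201 and their sizes were nearly the same. DESeq2 called ODC1 in LG against NG (DESeq2 adjusted p = 0.0209).

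AMD1, which makes the donor for spermidine and spermine, was called in LG and in LGCAR against NG. It was at 92.5, 97.3 and 101 CPM in NG, 86.8, 91.7 and 91.9 CPM in CAR, 76.6, 86.0 and 82.5 CPM in LG, and 85.9, 85.9 and 83.9 CPM in LGCAR. The CAR, LG and LGCAR libraries were all below those of NG, and those of LG and LGCAR overlapped. Between NG (96.9 ± 4.14 CPM) and LG (81.7 ± 4.72 CPM) AMD1 fell by 15.7% (log2 fold change -0.25, SE 0.0538, interval -0.36 to -0.13, edgeR adjusted p = 0.0289). In LGCAR it fell to 85.2 ± 1.16 CPM (-0.18, SE 0.0540, interval -0.30 to -0.07, edgeR adjusted p = 0.0444). With cariporide in both groups (LGCAR against CAR) AMD1 was not called (-0.08, interval -0.19 to 0.03, edgeR adjusted p = 0.448). The change with cariporide was -0.10 at 10 mM glucose and 0.06 at 5 mM. Their difference was 0.16 (SE 0.0761), with an unadjusted p of 0.0454 and an edgeR adjusted p of 0.9999.

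Of the aminopropyl transferases SRM and SMS, edgeR called SRM in 1 comparison. SRM was at 101, 99.7 and 101 CPM in NG, 102, 89.0 and 94.2 CPM in CAR, 88.3, 94.8 and 101 CPM in LG, and 85.6, 80.5 and 92.3 CPM in LGCAR. Its LGCAR libraries were below those of NG, and CAR and LG overlapped both. SRM fell from 100.4 ± 0.645 to 86.1 ± 5.96 CPM between NG and LGCAR (log2 fold change -0.22, SE 0.0641, interval -0.36 to -0.09, edgeR adjusted p = 0.0430). The levels of SMS were 261 ± 10.4 CPM (NG), 249 ± 8.12 (CAR), 253 ± 14.8 (LG) and 236 ± 6.39 (LGCAR), and edgeR called it in no comparison (in LGCAR against NG -0.14, interval -0.25 to -0.03, edgeR adjusted p = 0.0845). DESeq2 called SMS in LGCAR against NG (-0.15, DESeq2 adjusted p = 0.0387), and edgeR did so there without NG 3, CAR 1 and LG 3 (-0.12, edgeR adjusted p = 0.0139). These libraries were picked by their deviation from their own groups, which can by itself narrow the spread, so the latter call is not independent support.

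Among the genes that control ornithine decarboxylase, OAZ2 alone was called. OAZ2, the less abundant antizyme, was at 46.1, 46.95 and 50.03 CPM in NG, 46.7, 42.9 and 43.4 CPM in CAR, 40.5, 43.1 and 42.5 CPM in LG, and 40.4, 42.2 and 41.9 CPM in LGCAR. It fell between NG and LGCAR (log2 fold change -0.20, SE 0.0556, interval -0.32 to -0.08, edgeR adjusted p = 0.0355), and in LG the value was -0.18 (interval -0.30 to -0.07, edgeR adjusted p = 0.112). OAZ1, the main antizyme, was at 386 ± 7.81, 375 ± 31.4, 363 ± 18.7 and 351 ± 5.57 CPM in NG, CAR, LG and LGCAR (log2 fold change in LGCAR against NG -0.14, edgeR adjusted p = 0.127). AZIN1, the inhibitor of antizyme, was at 204 ± 7.58, 204 ± 12.2, 199.96 ± 5.73 and 211 ± 7.89 CPM in the same order, and its libraries overlapped in all 5 comparisons. The 95% interval for AZIN1 in LGCAR against NG was -0.06 to 0.16 on the log2 scale, so a fall of the size fitted for ODC1 lay outside it. Whether AZIN1 differed from ODC1 in its change was not tested.

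None of the 3 genes of breakdown was called in any comparison. SAT1, the acetyltransferase, was at 75.6 ± 4.79, 77.03 ± 8.89, 76.5 ± 2.23 and 68.2 ± 0.618 CPM in these 4 groups, and its 3 LGCAR libraries were below all other libraries. The log2 fold change of SAT1 in LGCAR was -0.15 against NG, -0.16 against LG and -0.18 against CAR (edgeR adjusted p = 0.173, 0.404 and 0.203). SMOX, the spermine oxidase, was at 19.4 ± 1.78, 18.3 ± 1.18, 18.7 ± 0.834 and 16.4 ± 0.903 CPM in NG, CAR, LG and LGCAR, and its LGCAR libraries were also the lowest 3 (against NG -0.24, interval -0.41 to -0.07, edgeR adjusted p = 0.0670). PAOX, the peroxisomal oxidase of acetylated polyamines, was at 5.83 ± 0.616, 5.10 ± 0.370, 5.84 ± 0.701 and 6.39 ± 0.767 CPM. It was the only gene of the 10 with all LGCAR libraries above all CAR libraries (0.32, interval 0.05 to 0.59, edgeR adjusted p = 0.208).

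**Figure D2:**
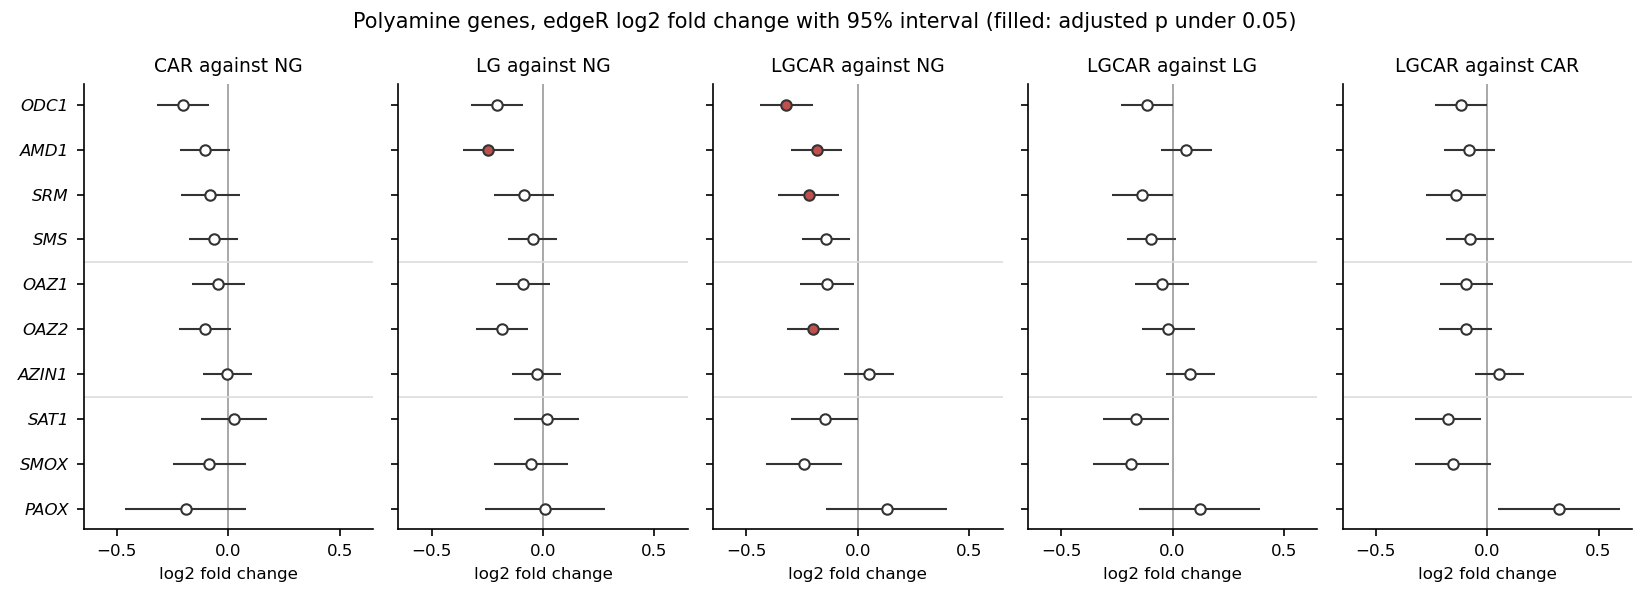
Log2 fold change (x axis) of each polyamine gene (rows) in the 5 comparisons, with 95% intervals as lines and filled points where the edgeR adjusted p was under 0.05. Filled points are at AMD1 in LG against NG (-0.25) and at ODC1, AMD1, SRM and OAZ2 in LGCAR against NG (-0.32, -0.18, -0.22 and -0.20).

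Counted over the 10 genes, LGCAR against NG was the comparison with the most calls. A gene was called at an edgeR adjusted p under 0.05 over all tested genes. In LGCAR against NG 4 of 10 were called, all lower, where 8.75% of all tested genes were called and 4.12% were called lower. DESeq2 called 5 of 10 there, SMS being the additional one, and 1802 genes in all. Here and below DESeq2 was run on all genes with any count, so its totals are not shares of the 15104 genes tested by edgeR. The median edgeR log2 fold change of the 10 genes was -0.17 (range -0.32 to 0.13). That of all tested genes was 0.01 with a middle range (quartiles) of -0.12 to 0.17. The libraries of NG and LGCAR did not overlap for 8 of the 10 genes, all lower in LGCAR, where this held for 38.2% of all tested genes in either direction. Of the 4 synthesis genes 3 were called lower, of the 3 control genes 1 was, and of the 3 breakdown genes none was called. Also lower, but not called, were SMS (-0.14), OAZ1 (-0.14), SAT1 (-0.15) and SMOX (-0.24), while AZIN1 (0.05) and PAOX (0.13) were above 0. Whether synthesis, control and breakdown genes differed in their change was not tested. In a bulk library a lower level in every cell and a smaller share of cells with the transcript cannot be told apart.

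Lower glucose without cariporide gave 1 call of 10, AMD1, where 1.73% of all tested genes were called and 0.728% were called lower. DESeq2 called 2 of 10, AMD1 and ODC1, and 380 genes in all. The median over the 10 genes was -0.07 against 0.01 for all tested genes. The libraries of NG and LG did not overlap for ODC1, AMD1 and OAZ2, each lower in LG, where 19.4% of all tested genes did not overlap. Cariporide at 10 mM glucose gave 0 calls of 10, and 0% of all tested genes were called by edgeR. Of the 10, 1 gene (ODC1) had an unadjusted p under 0.05 there, as did 4.53% of all tested genes, and DESeq2 called 0 of the 10 and 1 gene in all. The libraries of CAR and NG did not overlap for ODC1, AMD1 and PAOX, each lower in CAR, against 9.11% of all tested genes. These 3 comparisons share the NG libraries, so their values are given side by side and are not independent of each other.

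Cariporide at 5 mM glucose (LGCAR against LG) gave 0 calls of 10, where 0.00662% of all tested genes, a single gene, were called. At an unadjusted p under 0.05 there were 3, SRM (-0.14), SAT1 (-0.16) and SMOX (-0.19), where 11.9% of all tested genes had such a p, and DESeq2 called 0 of the 10 and 18 genes in all. Libraries did not overlap for ODC1, SMS, SAT1 and SMOX, each lower in LGCAR, against 21.3% of all tested genes. Lower glucose in the presence of cariporide (LGCAR against CAR) also gave 0 calls, where 1.65% of all tested genes were called. At an unadjusted p under 0.05 there were 4 here, ODC1 (-0.12), SRM (-0.14), SAT1 (-0.18) and PAOX (0.32), where 17.6% of all tested genes had such a p, and DESeq2 called 0 of the 10 and 425 genes in all. The libraries of 7 genes did not overlap, 6 lower and 1 higher in LGCAR, against 25.3% of all tested genes. The interaction, in which the effect of cariporide in 10 mM glucose is subtracted from its effect in 5 mM, gave 0 calls of 10 where 0.00662% of all tested genes were called. AMD1 (0.16) was the 1 gene with an unadjusted p under 0.05 in it, as had 3.13% of all tested genes, and DESeq2 called 0 of the 10 and 4 genes in all. The interaction of ODC1 was 0.09 (interval -0.08 to 0.25, edgeR adjusted p = 0.9999).

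**Figure D3:**
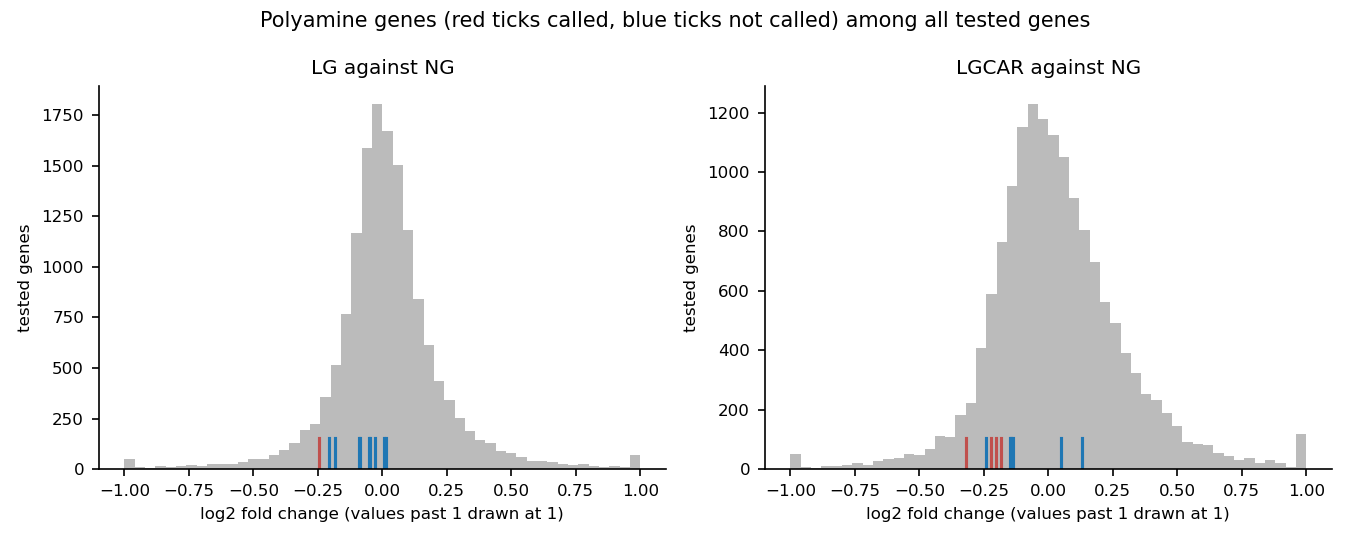
Histograms of the log2 fold change (x axis, values past 1 drawn at 1) of all 15104 tested genes (y axis, number of genes) in LG and in LGCAR against NG, with ticks for the 10 polyamine genes in red where called and blue where not. In LGCAR the called genes sit between -0.32 and -0.18, with AZIN1 (0.05) and PAOX (0.13) the 2 above zero.

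Libraries of a group differed along the length of transcripts, and this moved with several of the 10 genes. For each library the median deviation from its group was taken over the 25% of genes with the longest transcripts (at least 3890 bases) and over the 25% with the shortest (at most 1652 bases), and the second was subtracted from the first. The result was -0.20 on the log2 scale in CAR 1, -0.18 in LG 3 and -0.10 in NG 3, and 0.09 to 0.12 in CAR 2, CAR 3, NG 1 and LG 1. CAR 1 had the highest level of its group for SRM, SMS, OAZ1, OAZ2, SAT1, SMOX and PAOX. It had the lowest for AMD1 and AZIN1, whose transcripts are the longest of the 10 genes. OAZ1 was at 411 CPM in CAR 1 and at 357 and 356 CPM in CAR 2 and 3, and AZIN1 at 189.5 CPM in CAR 1 and at 209 and 212 CPM in the others. Between groups, the level of long minus short genes was 0.20 higher in LGCAR than in NG, 0.08 higher in CAR and 0.04 higher in LG.

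With a trend on transcript length removed from every library, an alternative added after the data were seen, ODC1, AMD1, SRM and OAZ2 were again called in LGCAR against NG. Their log2 fold changes were then -0.31 (edgeR adjusted p = 3.21e-04), -0.21 (0.00762), -0.15 (0.0440) and -0.16 (0.0407). ODC1 (-0.21, edgeR adjusted p = 0.00878) and OAZ2 (-0.17, 0.0343) joined AMD1 (-0.26, 0.00166) in LG against NG. The genes not called in LGCAR against NG then had values of -0.08 for SMS, -0.06 for OAZ1, -0.07 for SAT1, -0.22 for SMOX, -0.01 for AZIN1 and 0.18 for PAOX. ODC1 was called in LGCAR against NG under all 15 alternatives (log2 fold change -0.38 to -0.29, edgeR or DESeq2 adjusted p = 1.22e-05 to 0.0405). AMD1, SRM and OAZ2 were each called there under 8 of 15 and kept that call with 1 of the 6 libraries left out, NG 1 for AMD1 and OAZ2 and LGCAR 3 for SRM. Where another library was left out, the highest edgeR adjusted p was 0.190 for AMD1, 0.146 for SRM and 0.169 for OAZ2. AMD1 in LG against NG lost its call when NG 2, NG 3 or LG 1 was omitted (highest edgeR adjusted p 0.153). The counts out of 15 include the 2 alternatives chosen after the data were seen, and both called ODC1, AMD1, SRM and OAZ2 in LGCAR against NG. All 15 reuse the same libraries, so they are not independent support.

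**Figure D4:**
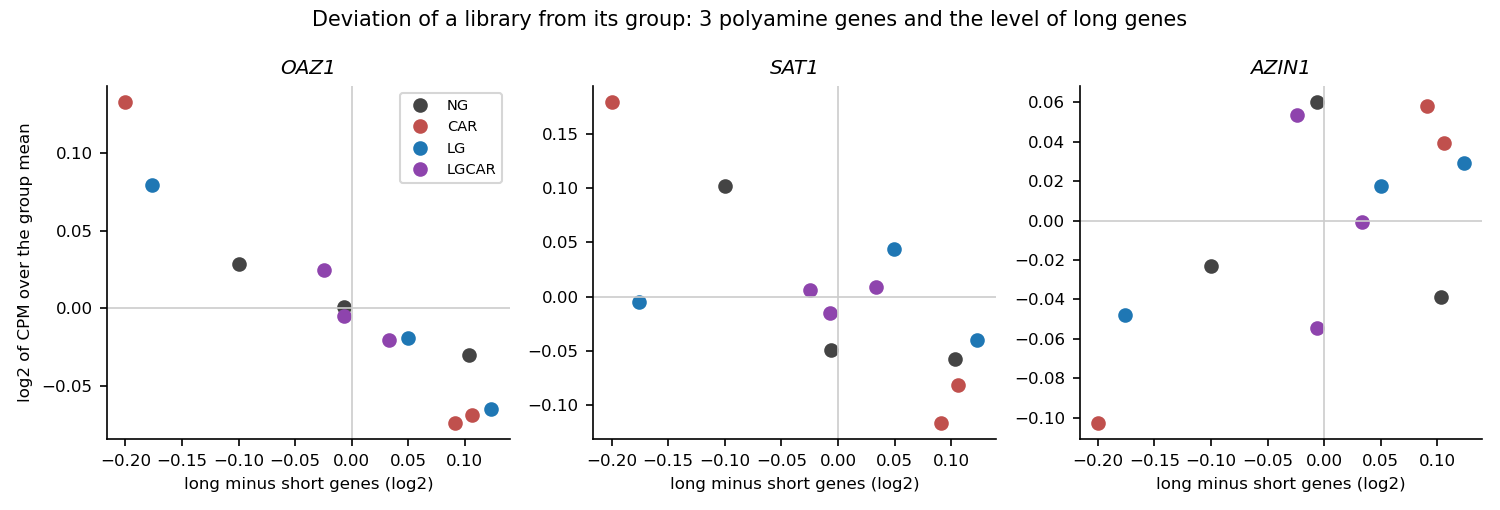
Deviation of each library from its group mean for OAZ1, SAT1 and AZIN1 (y axis, log2 of CPM over the group mean) against the deviation of long minus short genes (x axis, log2); points are libraries coloured by group. CAR 1, at -0.20 on the x axis, is highest for OAZ1 and SAT1 and lowest for AZIN1.

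The 10 genes did not vary alike over the 12 libraries. As a description over libraries that share their scaling and the axis of transcript length, Pearson's r of log2 CPM with ODC1 was 0.87 for SMS, 0.86 for OAZ2, 0.75 for OAZ1, 0.74 for SRM, 0.73 for AMD1 and 0.71 for SMOX. AZIN1 ran against SAT1 (-0.73), SRM (-0.73) and SMOX (-0.71), and PAOX had an r between -0.39 and 0.14 with each of the others. Of 10810 genes averaging 5 CPM or more over the libraries, those most like ODC1 were GTPBP4 (r = 0.948), ZBTB9 (0.947) and HSPD1 (0.946). GTPBP4 was at 118 ± 5.64, 111 ± 1.83, 109 ± 5.42 and 101 ± 2.15 CPM in NG, CAR, LG and LGCAR. Those most like AMD1 were AGPAT5 (r = 0.928), ZDHHC5 (0.926) and CYREN (0.922), and AGPAT5 was at 39.97 ± 0.364, 37.9 ± 0.469, 34.5 ± 1.12 and 36.1 ± 0.934 CPM in the same order of groups.

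Around the pathway, 45 related genes were listed, all in the tables, and 39 were tested. In LGCAR against NG 5 were called lower and none higher, where 8.75% of all tested genes were called and 4.12% were called lower. In LG against NG 2 were lower and 1 higher (1.73% of all tested genes called), and in LGCAR against CAR 2 were lower and 1 higher (1.65%). None was called in CAR against NG, in LGCAR against LG or in the interaction. The median of the 39 in LGCAR against NG was -0.04.

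Of the methionine cycle, 1 gene was called. MAT2A, which makes S-adenosylmethionine, the substrate of AMD1, was at 173, 173 and 188 CPM in NG, 174, 175 and 173 CPM in CAR, 136, 139.9 and 145 CPM in LG, and 146, 149.9 and 149 CPM in LGCAR. All 6 libraries at 5 mM glucose were below all 6 at 10 mM. MAT2A fell by 0.35 on the log2 scale in LG against NG (SE 0.0466, edgeR adjusted p = 0.00129), by 0.26 in LGCAR against NG (edgeR adjusted p = 0.00564) and by 0.23 in LGCAR against CAR (edgeR adjusted p = 0.0214), the last a call kept with 1 of 6 libraries left out, CAR 1. GGCX, on the opposite strand, overlaps 12.4% of its exon length, so the value of MAT2A is uncertain to that extent. MAT2A was 1 of 9 tested genes of the methionine cycle and of the salvage of methylthioadenosine, the by-product of SRM and SMS, and the other 8 were not called. The remaining gene of that list, MTAP, the salvage phosphorylase, had 0 counts in all 12 libraries, which allows up to 0.0114 CPM over the pooled total of 262957138 counts (3 counts, counting error only).

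Of 9 tested genes of polyamine transport, SLC3A2 fell in 3 comparisons and GPC1 rose in 1. SLC3A2, a chain of amino acid exchangers that has also been linked to polyamine export, was at 316, 310.4 and 331 CPM in NG, 307, 282 and 286 CPM in CAR, 264, 241 and 269 CPM in LG, and 230.0, 227 and 232 CPM in LGCAR. Its libraries were lower in CAR than in NG, in LG than in CAR and in LGCAR than in LG, with no overlap between neighbours. The log2 fold change of SLC3A2 was -0.31 in LG against NG (edgeR adjusted p = 0.00545), -0.48 in LGCAR against NG (1.82e-04) and -0.35 in LGCAR against CAR (0.00354). GPC1, a glypican whose heparan sulfate binds spermine, rose by 0.31 in LGCAR against CAR (edgeR adjusted p = 0.0241), a call that was kept with 1 of 6 libraries left out, CAR 1. The polyamine pumps ATP13A2 and ATP13A3 were not called, and ATP13A4 was near 0.

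Arginine and ornithine supply gave 2 calls among 9 tested genes, both in LGCAR against NG. ASS1, which joins citrulline and aspartate on the way to arginine, fell by 0.36 on the log2 scale (SE 0.1001, edgeR adjusted p = 0.0386), and PYCR1, the last enzyme of proline synthesis, fell by 0.20 (SE 0.0504, edgeR adjusted p = 0.0275). Each kept its call with 1 of the 6 libraries left out, NG 1, and ASS1 lost it with the replicate number as a block (edgeR adjusted p = 0.0756). Other genes overlap 14.1% of the exon length of PYCR1 on its own strand and 15.6% on the other, which makes its value uncertain. ARG1 was at 0 in all libraries, GATM was near 0, and ARG2 and OAT, which make and use ornithine in mitochondria, were not called. EIF5A, the translation factor that carries hypusine made from spermidine, fell by 0.18 in LGCAR against NG (SE 0.0508, edgeR adjusted p = 0.0397) as 1 of 5 tested genes of hypusine formation. Its call was lost without any 1 of the 6 libraries and with the replicate number as a block (edgeR adjusted p = 0.0675), and its near-identical copy EIF5AL1 makes the count uncertain.

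MYC, a regulator known to act on ODC1, was highest in LG. MYC was at 222, 212 and 227 CPM in NG, 215, 206 and 202 CPM in CAR, 254, 244 and 290.5 CPM in LG, and 223, 209.7 and 208 CPM in LGCAR, with all LG libraries above all others. It rose by 0.26 in LG against NG (SE 0.0601, edgeR adjusted p = 0.0398), where ODC1 had a value of -0.21, and the difference between these was not tested. That call held with 1 of the 6 libraries left out, LG 2, and was lost with ribosomal RNA genes left out (edgeR adjusted p = 0.0504) and with the replicate number as a block (0.0696). In LGCAR against LG the value of MYC was -0.30 (edgeR adjusted p = 0.282), and its interaction was -0.22 (edgeR adjusted p = 0.9999). The other 4 regulators, MAX, MXI1, NFE2L2 and NQO1, were not called. Of the close relatives of the 10 genes, AZIN2 and SAT2 were tested and not called, SATL1 was at 0 in all libraries and OAZ3, the antizyme of the testis, had 0 to 4 counts.

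**Figure D5:**
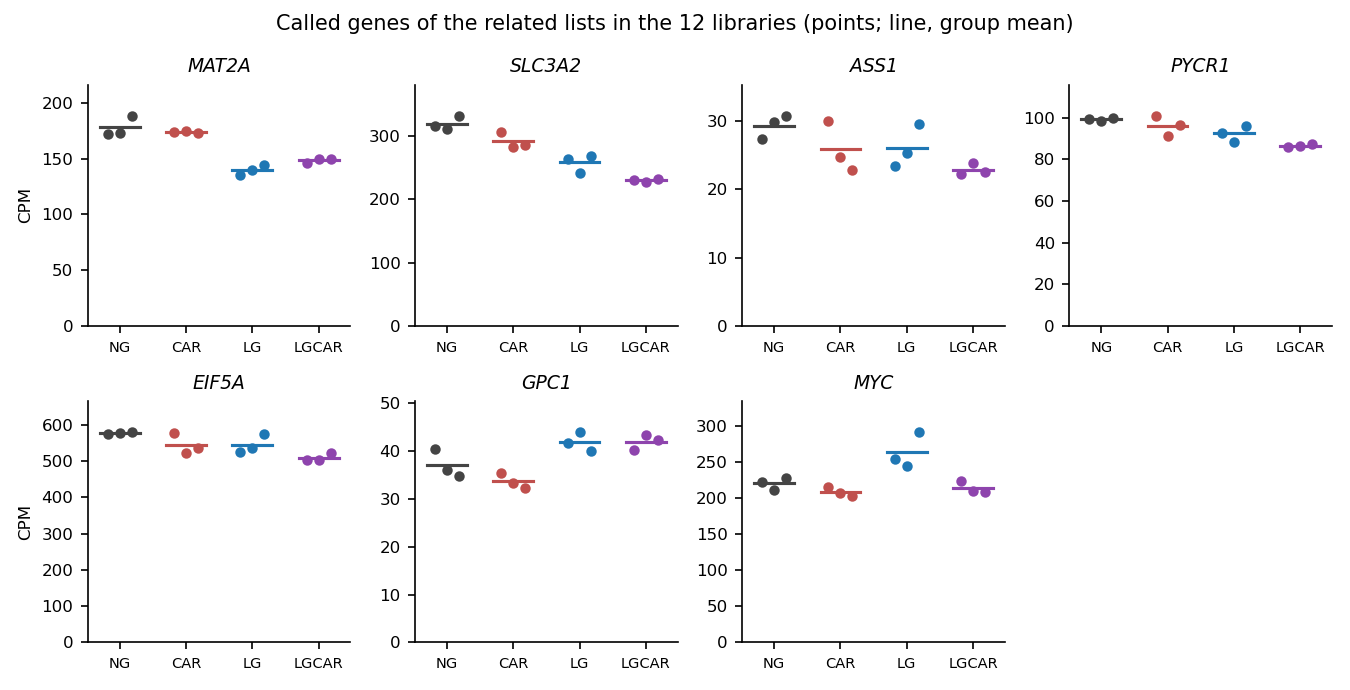
Level (y axis, CPM, from 0) of the 7 related genes called in at least 1 comparison, in the 12 libraries by group (x axis); points are libraries and lines are group means. MAT2A lies at 172.5 CPM or more at 10 mM glucose and at 149.9 CPM or less at 5 mM, and MYC is highest in the 3 LG libraries.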

How the data were processed

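RNA of 12 MDA-MB-231 libraries was extracted with Trizol and prepared with a directional kit, per the labels' protocols. The deposited files hold raw counts per gene symbol, 1 table per library. Fastp, STAR, Salmon and GATK with GRCh38 are named in the submitters' processing notes. Their versions, which of them made the counts and whether counting used the strand were not found in these sources.

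Genes passing filterByExpr were tested with edgeR 4.0.16 (R 4.3.3, TMM scaling, robust quasi-likelihood test) in 1 fit to all 12 libraries with a mean per group. P-values were adjusted over all tested genes by the Benjamini-Hochberg method. Fold changes carry 95% intervals. Libraries of a group differed pairwise by more than counting noise (chi-square per degree of freedom 2.79 to 23.8 over 12 pairs). Levels between genes were divided by the median length of coding transcripts (GENCODE 29). On simulated data for LGCAR against NG, with 15104 genes, the test recovered 42% of genes changed by 1.25-fold and 66% at 1.5-fold.

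The 10 genes and all lists were chosen with earlier results of these data known. All 10 are named, with every library for called ones, and from related lists the called genes (at most 3 a list and comparison) and those at or near 0. The genes most like the 2 members with the smallest p are named too. Alternatives were RLE size factors, library totals, ribosomal RNA genes left out, no filter, DESeq2 1.42.0, a replicate block, omission of NG 1 and LGCAR 3 together, and of every single library. DESeq2 and the fit with no filter took all genes with any count. Chosen after seeing the data, 2 more were: NG 3, CAR 1 and LG 3 left out together, and a length trend removed, for which 13283 tested genes (87.9%) had a length.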

Additional observations from a re-analysis of the deposited data

How the results depend on the processing

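Of 1125 values recomputed for named genes, 1005 kept their direction and their side of the threshold, 66 lost a call, 13 gained one and 41 changed sign, none of them called. In LG against NG 1 polyamine gene was called, and the count was 2 with no filter, 2 by DESeq2, 0 without NG 1 and LGCAR 3, 3 without NG 3, CAR 1 and LG 3, 3 with the length trend removed, and 0 to 2 with a library left out. In LGCAR against NG 4 were called, but 5 by DESeq2 (with SMS), 6 without NG 3, CAR 1 and LG 3 (with SMS and OAZ1), 1 without NG 1 and LGCAR 3, and 1 to 4 with a library left out. In CAR against NG 0 were called, and 1 without NG 3, CAR 1 and LG 3, which was ODC1 (log2 fold change -0.19, edgeR adjusted p = 0.0266). Elsewhere the count was always 0. Calls over all genes rose too without NG 3, CAR 1 and LG 3 (below). Leaving out libraries lowers n, and otherwise the cause was not tested.

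Pairing by replicate number was undecided at n = 3 a group. Deviations had r of -0.11 to 0.14 over 18 equal-number pairs (median 0.04) and -0.20 to 0.23 over 36 others (0.01). With the number as a block, LGCAR against NG had 1 polyamine gene called, ODC1 (-0.32, edgeR adjusted p = 0.0115), and AMD1 (0.0576), SRM (0.0589) and OAZ2 (0.0643) were not called. ASS1 (0.0756), EIF5A (0.0675) and, in LG against NG, MYC (0.0696) also lost their calls. AMD1 in LG against NG kept its call (0.0412). The block reduced the calls over all tested genes from 261 to 147 for LG against NG, from 1322 to 682 for LGCAR against NG and from 249 to 135 for LGCAR against CAR.

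Counts over all tested genes moved by more than 1.5 times elsewhere too, and the ranges here are those with a library left out. LG against NG (261 called) had 92 without NG 1 and LGCAR 3, 1122 without NG 3, CAR 1 and LG 3, 654 with the length trend removed, and a range of 82 to 365. LGCAR against NG (1322) had 257, 2903, no such shift with the trend, and 134 to 1578. LGCAR against CAR (249) had 56, 943, 578 and 49 to 190, and in addition 425 by DESeq2 and 391 with no filter. LGCAR against LG (1) had 42 without NG 3, CAR 1 and LG 3, 6 with the trend removed, 18 by DESeq2, 15 with no filter, and 1 to 3. CAR against NG (0) had 2, 574, 1 by DESeq2, and 0 to 2. The interaction (1) had 2, 19, 4 by DESeq2, 2 with no filter, and 1 to 3. Library totals as the only scaling made 69.5% of the calls higher for LG against NG (57.9% in the main result) and 26.8% for LGCAR against CAR (59.0%). With no filter the share was 39.6% there and 41.2% for LGCAR against NG (52.95%). With the length trend removed the shares were 42.97%, 44.3% and 37.1% for LG against NG, LGCAR against CAR and LGCAR against NG.

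Of the changed signs, without NG 3, CAR 1 and LG 3 the interaction was 0.040 for SRM, 0.014 for SMS and 0.096 for OAZ1, AZIN1 was 0.030 in CAR against NG and -0.0032 in LGCAR against CAR, and SAT1 was -0.022 in CAR against NG. For OAZ1 the interaction was also 0.0025 when ribosomal RNA genes were dropped, 0.0015 with RLE size factors, 0.0010 by DESeq2, 0.015 without NG 1 and LGCAR 3, and 0.021 with the length trend removed. That last alternative gave 0.0086 for OAZ1 and 0.019 for OAZ2 in LGCAR against LG, and -0.014 for AZIN1 in LGCAR against NG. AZIN1 in CAR against NG was 0.034 with library totals and 0.0063 with no filter. Without NG 1 and LGCAR 3, SAT1 was -0.0058 in CAR and -0.020 in LG against NG. PAOX in LG against NG was -0.0027 when ribosomal RNA genes were dropped, -0.00079 with RLE size factors and -0.0014 by DESeq2. With a library left out the interaction ran from -0.0612 to 0.0134 for SMS and from -0.0363 to 0.0685 for OAZ1. OAZ2 in LGCAR against LG ran from -0.0450 to 0.00032. In CAR against NG AZIN1 ran from -0.0380 to 0.0449 and SAT1 from -0.0729 to 0.0811, and in LG against NG SAT1 ran from -0.0234 to 0.0699, SMOX from -0.106 to 0.0280 and PAOX from -0.0527 to 0.0945. Depth limits PAOX most, with 107 to 151 counts per library.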

Other observations

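MTAP was 1 of 24 consecutive protein-coding genes of the tables with 0 counts in all 12 libraries, looked at after its own 0 was seen. The run reaches from HACD4 to IZUMO3 on chromosome 9 (GRCh38.p14, 20999509 to 24545897), a span of 3546 kb, and takes in 16 interferon genes, KLHL9, CDKN2A and CDKN2B. Within the span the non-coding gene LOC107987054 had 0 to 3 counts per library. The nearest coding gene before the run, FOCAD, had 155 to 228 counts in every library, and the nearest after it, TUSC1, had 112 to 199.

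MAT2A, which makes S-adenosylmethionine, and AMD1, which uses it, had their lowest group mean in LG, at 140.1 ± 4.53 and 81.7 ± 4.72 CPM, and ODC1 and SLC3A2 in LGCAR, at 102 ± 2.27 and 229 ± 2.70 CPM (SD, n = 3 each). None of these genes was called in LGCAR against LG (AMD1 0.06, edgeR adjusted p = 0.626, and ODC1 -0.11, edgeR adjusted p = 0.425). The order of the LG and LGCAR means is therefore a description only.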
